A study of Homo sapiens with 8 samples.

Results

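The 9 genes described here are direct targets through which the tumour suppressor p53 limits its own activity or slows cell growth: MDM2, MDM4, PPM1D, CCNG1, ZMAT3, BTG2, PHLDA3, PLK2 and PLK3. They were listed by symbol and matched to probe sets that the platform annotation pairs with exactly 1 symbol. Of the 9 listed genes 8 had a value, each from 1 probe set, among 18404 genes tested in all, and no filter on low values was applied. BTG2 was not analysed here. The arrays came from HepG2, a human liver tumour cell line. In the H2O2 group, 4 cultures were exposed to 0.5 mM hydrogen peroxide in medium for 60 minutes as a trigger of senescence, the state in which cells stop dividing for good, and they were set against 4 untreated cultures kept in medium without it. Both groups were the same line, and the labels name no genetic manipulation of either. Per the labels, both were cultured for 5 days after washing before their phenotype was examined. The time of RNA extraction is not given separately. The design text calls the cultures biological replicates, and 4 arrays per group is what limits precision throughout.

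p53 is a transcription factor that is stabilised after DNA damage and other stress and that switches on genes for cell cycle arrest, repair and cell death. Several of its targets act back on it: MDM2 marks p53 for destruction, MDM4 binds and blocks its activation domain, and the phosphatase PPM1D removes the phosphate marks that damage kinases place on p53 and on each other. Other targets carry out the arrest or restrain growth signals.

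The MDM2 gene has an outer start that works without p53 and an inner start, within its first intron, that p53 is known to drive. The stretches below are the 250 bases before the inner MDM2 start and before the PLK2 start, shown because they were the only windows of listed genes in which a p53 motif was found. They come from RefSeq on GRCh38.p14, at chr12:68808767-68809016 on the plus strand for MDM2 and at chr5:58460087-58460336 on the minus strand for PLK2. In capitals stand the match to a full p53 response element in MDM2 and the match to a single p53 decamer in PLK2. Both were found by the search described below. Elements that lack the C or G which this search requires would stay in lower case.
MDM2 inner start: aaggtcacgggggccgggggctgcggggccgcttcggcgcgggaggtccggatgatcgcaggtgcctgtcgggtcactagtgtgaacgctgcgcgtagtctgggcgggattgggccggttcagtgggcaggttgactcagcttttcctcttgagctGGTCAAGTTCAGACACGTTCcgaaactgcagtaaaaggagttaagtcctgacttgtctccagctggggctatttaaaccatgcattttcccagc
PLK2 start: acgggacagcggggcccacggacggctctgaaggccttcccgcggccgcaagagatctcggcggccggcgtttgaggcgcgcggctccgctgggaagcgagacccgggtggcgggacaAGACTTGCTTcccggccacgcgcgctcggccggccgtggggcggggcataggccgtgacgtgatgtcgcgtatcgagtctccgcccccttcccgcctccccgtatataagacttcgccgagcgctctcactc

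The full element was searched as 2 p53 decamers of 10 bases each, at most 1 base apart, with the inner C and G of each decamer required and at most 2 mismatches in all; the motif reads the same on both strands. It began 94 bases before the inner MDM2 start with 2 mismatches, and the same letters fall in the overlapping window of a neighbouring inner start. Of all 35116 windows of 300 bases, 250 before and 50 after a start, 0.533% held such an element. An exact single decamer was present in 6.63% of windows, among them that of PLK2, 132 bases before the start. RefSeq windows were found for 8 of the 9 listed genes, 13 in all, PHLDA3 being the gene without one. The windows of MDM4, PPM1D, CCNG1, ZMAT3, BTG2 and PLK3 and those of the outer MDM2 starts held neither motif, which says only that these letters are not in those windows.

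Of the 8 measured genes 7 were called higher in H2O2 cells and none lower. The rises ran from MDM4, 1.27-fold, to PLK2, 4.36-fold, and the exception was CCNG1, which did not pass the test. A gene was called where the adjusted p was under 0.05 (limma over all genes, Benjamini-Hochberg), and each log2 difference, H2O2 minus untreated, carries its standard error. Called rises made up 7 of 8 members (87.5%), against 19.2% of all 18404 genes, while 14.8% of all genes were called lower and 34.0% in either direction. The median log2 difference was 0.89 over the 8 members and -0.022 over all genes. For the same 7 genes every H2O2 array lay above every untreated array, which was so for 18.9% of all genes, and 14.8% of all genes lay wholly below. In the plot of values by array the groups are apart in every panel but that of CCNG1.

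**Figure D1:**
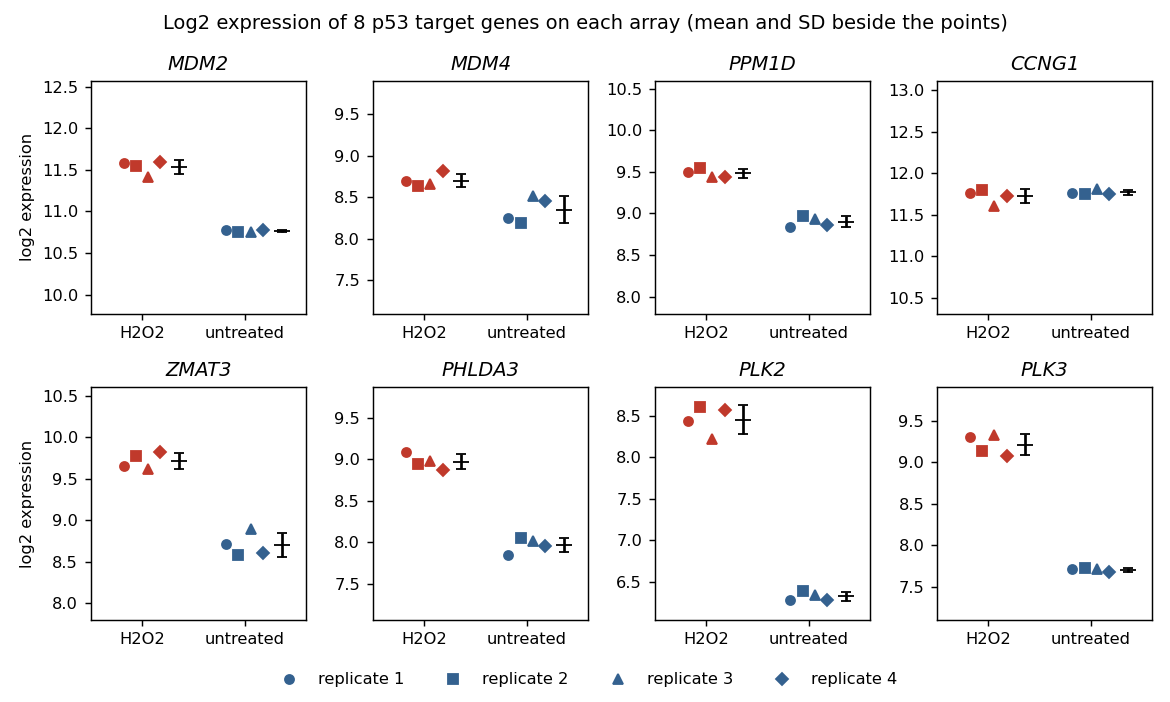
Log2 expression of the 8 measured genes on each array, H2O2 on the left and untreated on the right of each panel, with marker shape for the replicate number and the mean ± SD beside the points (n = 4 per group). All panels span the same number of log2 units, so heights of the steps compare between panels: the step is largest for PLK2 (8.45 in H2O2 cells, 6.33 in untreated cells) and absent for CCNG1 (11.72 and 11.77).

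MDM2, the ubiquitin ligase that ends the p53 response, stood at log2 values of 11.58, 11.55, 11.42 and 11.59 in H2O2 replicates 1 to 4, against 10.77, 10.75, 10.75 and 10.77 in untreated replicates 1 to 4. The untreated arrays were almost level (SD 0.012) and the H2O2 arrays more spread (SD 0.080), with H2O2 replicate 3 the lowest of its group yet 0.64 above the highest untreated array. The rise was 0.77 ± 0.065 on the log2 scale, or 1.71-fold (limma adjusted p = 6.64e-07). One probe set stands for the gene, so transcripts from the inner and the outer start are not told apart.

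MDM4, a relative of MDM2 that binds p53 but is a poor ligase on its own, gave 8.70, 8.63, 8.65 and 8.81 in H2O2 replicates and 8.25, 8.19, 8.51 and 8.46 in untreated replicates. Here the groups came closest without overlapping, with a gap of 0.12 between the lowest H2O2 and the highest untreated array. The means were 8.70 ± 0.080 in H2O2 cells and 8.35 ± 0.16 in untreated cells (SD, n = 4), so that the untreated arrays were the more spread. The difference was 0.35 ± 0.083 (limma adjusted p = 0.00501), the smallest called rise of the list.

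PPM1D, the phosphatase Wip1, which also acts on the damage kinases ATM and CHK2, read 9.50, 9.55, 9.44 and 9.44 in H2O2 cells and 8.84, 8.97, 8.93 and 8.86 in untreated cells. Both groups were tight, with SDs of 0.052 in H2O2 and 0.063 in untreated arrays, and lay 0.46 apart at their nearest values. The rise of 0.58 ± 0.065, or 1.496-fold, passed at a limma adjusted p = 9.48e-06. MDM2, MDM4 and PPM1D, all of which restrain p53, were thus all called higher.

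CCNG1 encodes cyclin G1, which brings the phosphatase PP2A to MDM2 and is among the first p53 targets described. Its values were 11.77, 11.80, 11.61 and 11.72 in H2O2 cells and 11.76, 11.74, 11.81 and 11.75 in untreated cells, so the groups overlapped. The difference of -0.045 ± 0.066 did not pass (limma adjusted p = 0.661), and its 95% interval ran from -0.19 to 0.097, below the rise estimated for any of the other 7 genes. H2O2 replicate 3 was again the lowest of its group, and without it the difference was -0.0061. The gene lay far above the array median of 6.89 in both groups.

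ZMAT3, a zinc finger protein that binds RNA and acts on the stability and splicing of transcripts, gave 9.65, 9.77, 9.62 and 9.83 in H2O2 cells against 8.72, 8.58, 8.90 and 8.61 in untreated cells. The groups were 0.72 apart at their nearest. The rise was 1.02 ± 0.083, or 2.03-fold (limma adjusted p = 5.07e-07).

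PHLDA3, a small lipid-binding protein that keeps the kinase AKT from the membrane, stood at 9.09, 8.94, 8.98 and 8.88 in H2O2 cells, against 7.85, 8.05, 8.02 and 7.96 in untreated cells. Spread was alike in both groups (SD 0.088 each) and the gap between them 0.82. The rise was 1.0002 ± 0.072, or 2.0003-fold (limma adjusted p = 1.68e-07).

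PLK2 and PLK3 are stress-linked members of the polo-like kinase family, whose best-known member PLK1 drives mitosis. PLK2 read 8.43, 8.60, 8.22 and 8.56 in H2O2 cells and 6.29, 6.40, 6.34 and 6.29 in untreated cells. Its rise of 2.13 ± 0.085, or 4.36-fold, was the largest of the list (limma adjusted p = 5.13e-10), and 52 of all genes tested, or 0.283%, rose by more. On every untreated array PLK2 lay under the median probe set of 6.89, and the table holds no detection value by which to judge whether that is signal, so its fold is less certain than those of the other members.

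PLK3 gave 9.30, 9.13, 9.33 and 9.07 in H2O2 cells and 7.71, 7.73, 7.71 and 7.67 in untreated cells. The groups lay 1.34 apart, several times the range within either, which was 0.26 in H2O2 and 0.058 in untreated arrays. The rise was 1.502 ± 0.073, or 2.83-fold (limma adjusted p = 3.33e-09). H2O2 replicate 3, the lowest of its group for MDM2, CCNG1, ZMAT3 and PLK2, was the highest for PLK3, so no single H2O2 array was low throughout. The SD was larger in H2O2 than in untreated arrays for 4 of the 8 genes.

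Against the distribution of all genes the members fell into a graded order. Larger rises than that of PLK3 were found for 0.761% of genes tested, than that of ZMAT3 for 1.78% and than that of PHLDA3 for 1.87%. For MDM2 the share was 3.32%, for PPM1D 5.59% and for MDM4 12.3%, whereas 55.6% of genes had a higher difference than CCNG1. The 95% intervals of ZMAT3 (0.84 to 1.20) and PHLDA3 (0.84 to 1.16) overlapped, as did those of PHLDA3 and MDM2 (0.63 to 0.91). Those of MDM2 and PPM1D (0.44 to 0.72) overlapped too, and so did those of PPM1D and MDM4 (0.17 to 0.53). PLK3 (1.35 to 1.66) and PLK2 (1.94 to 2.31) lay apart from every other member and from each other.

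**Figure D2:**
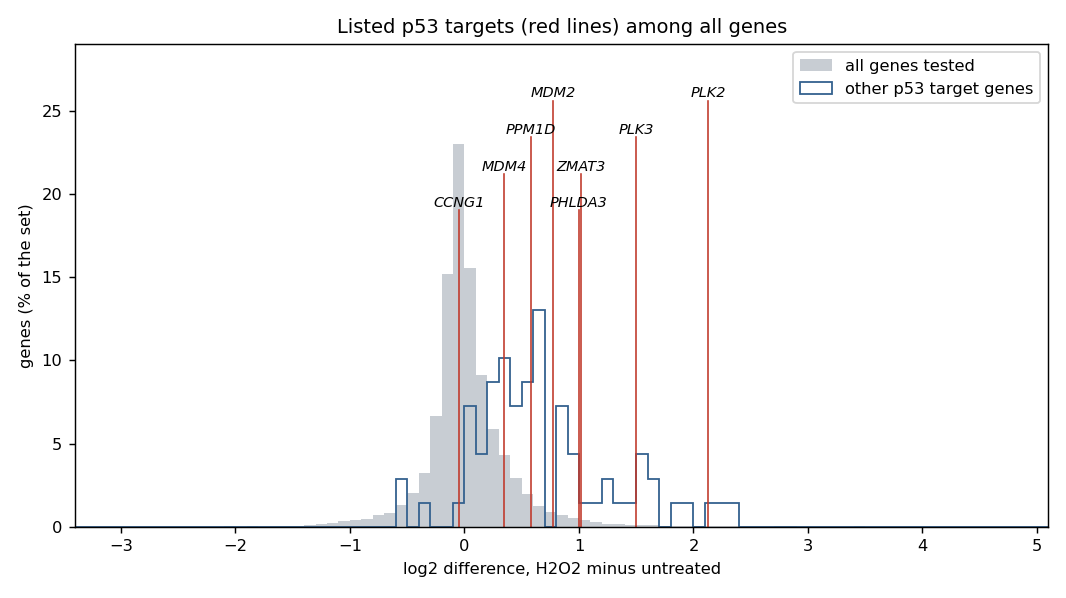
Distribution of the log2 difference, H2O2 minus untreated, as the percentage of genes per bin for all 18404 genes tested (grey) and for 69 other p53 target genes (blue outline), with a red line at the value of each listed gene. CCNG1 (-0.045) lies at the centre of the grey distribution and PLK2 (2.13) far in its right tail.

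Whether a listed gene and a relative moved by unequal amounts was tested on the log2 difference between the pair within each array, with an exact two-sided permutation test over the arrays and adjustment over the 5 pairs with values. With 4 arrays against 4 no p below 0.0286 is possible. Signals of different probe sets do not rank transcript amounts, so only the change in each difference can be read. The MDM2 minus MDM4 signal was 2.84 ± 0.077 in H2O2 arrays and 2.41 ± 0.16 in untreated arrays (SD, n = 4), so that MDM2 gained 0.43 on MDM4 with no overlap between groups (exact permutation p = 0.0286, adjusted p = 0.0357). The PLK2 minus PLK3 signal was -0.75 ± 0.29 in H2O2 arrays and -1.38 ± 0.038 in untreated arrays, a gain of 0.62 without overlap (exact permutation p = 0.0286, adjusted p = 0.0357). Since PLK2 lay under the array median on every untreated array, with no detection value, the size of this gain is as uncertain as its fold. PPM1D gained 0.60 on the phosphatase PPM1A, which was not called, and CCNG1 0.33 on CCNG2, each again without overlap at the same p and adjusted p by the exact permutation test. In the last pair CCNG1 itself was level and CCNG2 fell. PHLDA3 and PHLDA1 rose by 1.0002 and 0.92, and the 0.079 between these changes did not pass (exact permutation p = 0.314, adjusted p = 0.314).

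Across the gene families, 6 of 27 relatives rose and 6 fell, with a median log2 difference of -0.0076, so that called rises and called falls each made up 22.2% of them, against 19.2% higher and 14.8% lower among all genes. Unlike PLK2 and PLK3, the mitotic kinase PLK1 was lower (-0.96 ± 0.095, limma adjusted p = 3.19e-06) and so was PLK4, which starts centriole duplication (-1.67 ± 0.17, limma adjusted p = 3.77e-06), while PLK5 gave -0.10 ± 0.090 and did not pass. PLK4 had 7.36, 7.63, 6.57 and 7.01 in H2O2 cells, against 8.75, 8.86, 8.92 and 8.70 in untreated cells, with H2O2 replicate 3 the lowest. Among phosphatases related to PPM1D, PPM1N rose by 0.65 ± 0.086 and PPM1L by 0.34 ± 0.089, although PPM1L averaged below the array median in both groups and PPM1N in untreated cells. PPM1H fell by 0.95 ± 0.070.

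In the family of BTG2, whose product slows the cell cycle and brings the CCR4-NOT deadenylase to messenger RNAs, BTG1 fell by 0.52 ± 0.070 (limma adjusted p = 5.27e-05) and BTG3 rose by 0.28 ± 0.066 (limma adjusted p = 0.00405). BTG1 is itself also counted among p53 targets. PHLDA1 rose by 0.92 ± 0.066, and CCNG2, a cyclin G controlled mainly by FOXO factors, fell by 0.38 ± 0.078 (limma adjusted p = 0.00168). None of the 4 ZMAT relatives of ZMAT3 was called. ZMAT1 (4.40 in H2O2 cells, 4.57 in untreated cells) and ZMAT4 (5.42 and 5.39) lay below the array median in both groups.

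**Figure D3:**
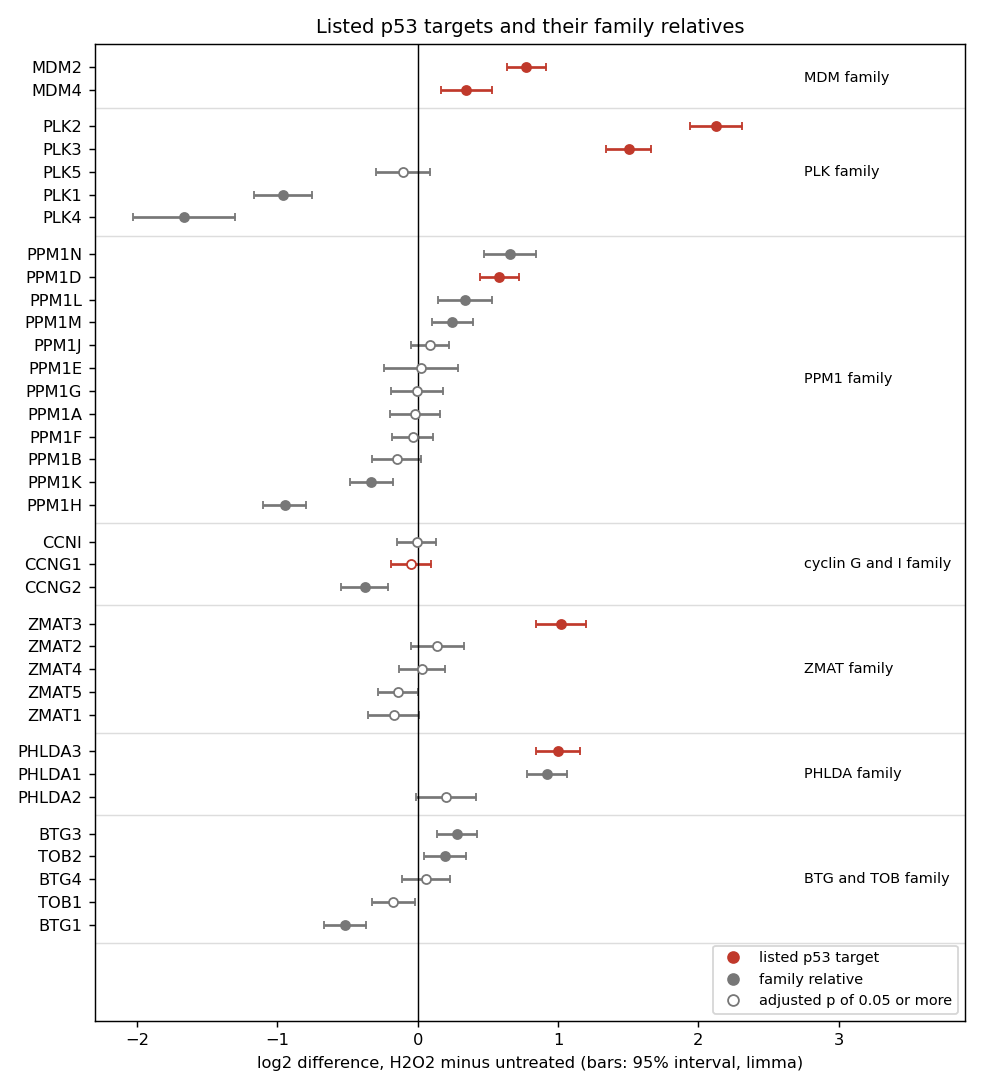
Log2 difference, H2O2 minus untreated, with 95% intervals for the listed genes (red) and their family relatives (grey), grouped by family, open symbols marking genes with an adjusted p of 0.05 or more (limma, n = 4 arrays per group). PLK2 and PLK3 lie right of 0 and PLK1 and PLK4 left of it, and CCNG1 lies at 0 with CCNI while CCNG2 lies left of it.

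Beyond the listed genes, 57 of 69 other measured p53 target genes rose and 3 fell, out of 72 listed, with a median log2 difference of 0.57 against -0.022 over all genes. These are 82.6% called higher and 4.35% called lower, where all genes gave 19.2% and 14.8%. This list, like that of the members, was chosen with earlier results of these data known. The 5 largest rises were those of CDKN1A, KITLG, TIGAR, FAS and TRIM22. CDKN1A, the kinase inhibitor p21 and the main arrest gene of p53, rose by 2.36 ± 0.067, a little more than PLK2. KITLG, the ligand of the receptor KIT, rose by 2.29 ± 0.094, at levels of 7.12 ± 0.19 in H2O2 cells and 4.82 ± 0.11 in untreated cells (SD, n = 4), the untreated level being below the array median. TIGAR, a sugar phosphatase that lowers glycolytic flux, rose by 2.19 ± 0.12, the death receptor FAS by 1.94 ± 0.099 and the antiviral ubiquitin ligase TRIM22 by 1.88 ± 0.14 (limma adjusted p of 3.13e-07 or lower for all 5). TRIM22 in untreated cells, at 5.33 ± 0.28 (SD, n = 4), was also below the array median.

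The 3 targets that fell were PANK1, a kinase of coenzyme A synthesis (-0.59 ± 0.073), BTG1 and E2F7, a repressor of cell cycle genes (-0.35 ± 0.084, limma adjusted p = 0.0051). The other 9 did not pass and lay between -0.039 and 0.17. CCNG1 thus was not the sole p53 target without a called change.

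Genes that act on p53 went both ways, with 7 of 33 measured higher and 6 lower (21.2% and 18.2%, against 19.2% and 14.8% of all genes) and a median of -0.040. SETD7, a methyltransferase that modifies p53 and histones, rose by 2.40 ± 0.11, with 7.68 ± 0.066 in H2O2 cells against 5.28 ± 0.25 in untreated cells (SD, n = 4), where it lay below the array median. CDKN2A, one of whose products, p14ARF, binds MDM2 and frees p53, rose by 1.02 ± 0.11. With 1 probe set for CDKN2A, p14ARF is not told apart from its other products. The damage kinase ATR (0.59 ± 0.081) and the acetyltransferase KAT2B (0.52 ± 0.076) also rose, KAT2B at levels below the array median in both groups.

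Among the falls, the checkpoint kinases CHEK2 (-0.79 ± 0.093) and CHEK1 (-0.78 ± 0.082) led, both of which phosphorylate p53. The acetyltransferase KAT8 (-0.44 ± 0.071), the nucleolar protein NPM1 (-0.37 ± 0.066, 1 of 3 probe sets, with near-identical gene copies that could share its signal) and USP7, which removes ubiquitin from MDM2 and p53 (-0.29 ± 0.082, limma adjusted p = 0.0138), fell as well.

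Of 16 measured partners and substrates of the listed proteins 5 rose and 5 fell, 31.2% each way against 19.2% higher and 14.8% lower among all genes, with a median of 0.030; ATM, CHEK2 and USP7 stand in this list and in that of genes acting on p53. USP2, another deubiquitinase of MDM2, rose by 0.86 ± 0.063 while USP7 fell. Of the PP2A subunit family that cyclin G binds, PPP2R5B rose by 0.55 ± 0.079 and PPP2R5E by 0.25 ± 0.067 (limma adjusted p = 0.0112 for PPP2R5E). PPP2R5A was lower (-0.23 ± 0.078, limma adjusted p = 0.0376), and PPP2R5C (-0.047 ± 0.083) and PPP2R5D (0.081 ± 0.067) did not pass. GAK, the kinase named for its binding to cyclin G, rose by 0.32 ± 0.064. SIPA1L1, a substrate of PLK2 in neurons, rose by 0.50 ± 0.073. CNOT8, a deadenylase that BTG proteins bind, fell by 0.99 ± 0.078, and the arginine methyltransferase PRMT1 by 0.36 ± 0.072. AKT1 and AKT2, the kinases that PHLDA3 restrains, did not pass at 0.093 ± 0.067 and -0.086 ± 0.062.

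The genes most like MDM2 over the 8 arrays, by Euclidean distance between profiles centred on each gene's mean, were BTBD10 (distance 0.125 log2 units), PON2 (0.127) and ST20 (0.130). For PLK2 they were MOSPD1 (0.232), SLC16A4 (0.260) and MR1 (0.304). These distances describe likeness over 8 arrays that differ mainly by group.

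Array medians lay between 6.87 and 6.92 in H2O2 cells and between 6.85 and 6.93 in untreated cells, and Pearson's r over all probe sets was 0.990 to 0.996 within groups and 0.979 to 0.985 between them. All 9 measured hepatocyte markers lay above the array median in both groups, among them ALB (12.31 ± 0.081 in H2O2 cells, 12.55 ± 0.034 in untreated cells). Of those 9, 5 fell (55.6%, against 14.8% of all genes) and 1 rose (11.1%, against 19.2% of all genes), and their mean level per array was 11.75 to 12.00 in H2O2 cells and 12.14 to 12.18 in untreated cells. Fibroblast and stellate cell markers rose in 2 and fell in 1 of 9 cases, leukocyte markers rose in 2 of 8 and fell in none, and endothelial markers fell in 1 of 7 and rose in none, set against the same shares of all genes. The fibroblast markers that rose were ACTA2, a smooth muscle actin (11.55 ± 0.076 in H2O2 cells, 10.06 ± 0.096 in untreated cells), and COL1A1 (7.99 ± 0.12 and 7.58 ± 0.073), and PDGFRB fell (6.97 ± 0.082 and 8.13 ± 0.18; SD, n = 4, H2O2 cells before untreated cells). The leukocyte markers that rose were CD68, a lysosomal protein (10.36 ± 0.087 and 9.56 ± 0.082), and CD14 (7.53 ± 0.066 and 7.26 ± 0.044), while LYZ was high without a call (12.83 ± 0.067 and 12.90 ± 0.015). Their mean levels per array were 6.52 to 6.72, 7.18 to 7.29 and 5.82 to 6.04 in H2O2 cells and 6.48 to 6.59, 7.10 to 7.18 and 5.88 to 6.02 in untreated cells, in that order of lists, and DCN, PTPRC and EMCN, none of which was called, averaged 4.23, 4.09 and 4.14 in H2O2 cells and 4.30, 4.23 and 4.28 in untreated cells. Their part in the results was not tested. A change in the number of cells that express a gene and a change per cell cannot be told apart in such bulk RNA.

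Every called member kept its direction and its call under all 15 alternatives, and the plot of alternatives shows the differences. Only quantile normalisation and median centring could have changed a direction. The other settings either left the differences of the members as they were or took an array out of groups that did not overlap. For PLK2 the setting without dim genes is no support, since it stayed in through its H2O2 arrays. MDM4, with the smallest called rise, lay between 0.29 and 0.40 with limma adjusted p up to 0.0215. CCNG1 stayed between -0.070 and -0.00070 and was called under none of them.

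**Figure D4:**
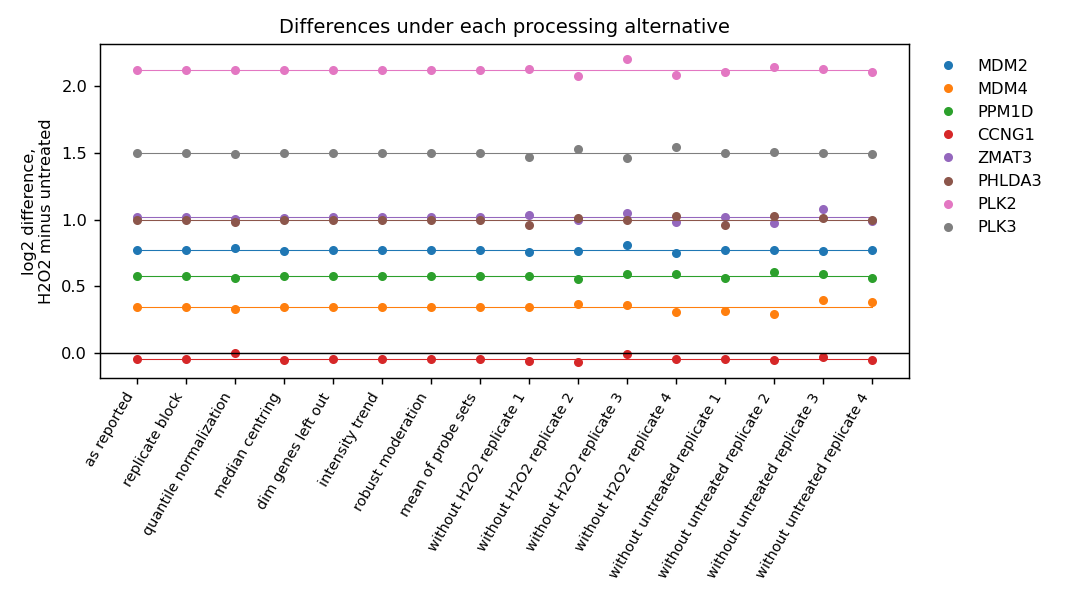
Log2 difference, H2O2 minus untreated, of the 8 measured genes as reported and under each of 15 alternatives (limma, n = 4 arrays per group, or 3 in the group that lost an array), with a line at the reported value. The points of each gene stay near its line, and those of PLK2 vary most in absolute terms, between 2.08 and 2.205.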

How the data were processed

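Total RNA of 8 HepG2 samples was hybridised to single-channel whole-transcript arrays after conversion to biotin-labelled sense cDNA, per the labels' protocols. The deposited table holds log2 expression values per probe set; how the authors summarised and normalised these is not stated in the labels or headers. limma appears in the submitters' processing notes without a stated use. Of 32321 probe sets, 19158 carry 1 gene symbol, 1388 several and 11775 none in the platform annotation. These gave 18404 genes, taking the probe set with the highest mean where a gene had several.

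H2O2 minus untreated was fitted with limma 3.58.1 in R 4.3.3 (group means, empirical Bayes moderation, Benjamini-Hochberg over all genes, called under 0.05). The fit was tested on simulated data. Pairs of genes were compared with scipy 1.17.1. Members and lists were chosen with earlier results of these data known. The text names all members, both genes of each pair, CDKN1A, and the largest called rises and falls of each list (5 each for p53 targets and genes acting on p53, 4 each for relatives and partners), with the 3 genes nearest to MDM2 and to PLK2; 1 rise among genes acting on p53 is not reported here. Same-numbered replicates were not treated as paired in the main fit. Their deviations correlated at -0.068, 0.060, -0.25 and 0.094, which shows no clear shared effect but cannot tell whether the arrays were handled in pairs. Alternatives were a replicate block, quantile normalisation, median centring, leaving out dim genes, an intensity trend, robust moderation, averaged probe sets and leaving out each array.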

Additional observations from a re-analysis of the deposited data

Results flagged for a closer look

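Of 94 groups of 4 arrays, for 47 named genes, 2 held an array far from the other 3, where chance gives about 1 in 20, and neither belonged to a listed gene. MOSPD1, the gene nearest to PLK2, stood at 9.09 in H2O2 replicate 3 while the other H2O2 arrays lay between 9.47 and 9.50. BTG1 stood at 9.64 in untreated replicate 4 while the other untreated arrays lay between 9.74 and 9.76. Every H2O2 array of BTG1 was lower still.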

How the results depend on the processing

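The limma count of 7 members called higher and 0 called lower held under all 15 alternatives. The groups of 7 members stayed apart in all 11 settings where this was recounted. Leaving out an array cannot make separate groups overlap, and averaging probe sets changes nothing for members with 1 probe set each. Only quantile normalisation and median centring could have changed that separation. Over all genes the called rises numbered 3110 to 3686 (3527 as reported) and the called falls 2228 to 3069 (2732). Other p53 targets gave 54 to 58 rises and 3 falls throughout, and the lists of genes acting on p53, of relatives and of partners kept their counts within 1.5 times. With the replicate number as a replicate block, which the deviations do not bear out as a pairing, MDM2 rose by 0.77 and no call of a member changed; 4 pairs of arrays allow no exact permutation p below 0.125, so the pairs MDM2 and MDM4 (0.43), PLK2 and PLK3 (0.62), PPM1D and PPM1A (0.60) and CCNG1 and CCNG2 (0.33) no longer pass by construction. Leaving out 1 array, which allows no exact p below 0.0571, gave 0.37 to 0.48, 0.54 to 0.74, 0.54 to 0.64 and 0.27 to 0.36 for these pairs in that order. Probe sets have no background or detection value here, which limits the fold of genes below the array median, PLK2 in untreated cells among them. Leaving out dim genes gave no value for KAT2B, KITLG, PPM1L, SETD7 and TRIM22. Quantile normalisation moved the median of all genes to -0.0055, against -0.022 as reported.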

Other observations

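The 9 other p53 targets that, like CCNG1, were not called were APAF1, BBC3, DRAM1, IER5, ORAI3, PGF, PGPEP1, SERPINB5 and TNFRSF10D. BBC3, the killer protein PUMA, gave 8.01 ± 0.20 in H2O2 cells and 8.05 ± 0.17 in untreated cells (SD, n = 4), a log2 difference of -0.039 ± 0.11 (limma adjusted p = 0.822), and APAF1, the core of the apoptosome, differed by 0.028 ± 0.071 (limma adjusted p = 0.807). Other targets with roles in cell death rose: FAS, PMAIP1 (1.55 ± 0.097), AEN (0.63 ± 0.065), TNFRSF10A (0.57 ± 0.073), PERP (0.45 ± 0.068), BAX (0.34 ± 0.065) and TNFRSF10B (0.27 ± 0.072; limma adjusted p = 0.00967, the highest of these). These genes were picked out after their values were seen, and no difference in response between them was tested.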
